A study of Mus musculus with 8 samples.

Results

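The tight junction genes described here are 47 of the 43629 genes in the deposited count table. They were chosen by symbol, with earlier results of these data known. Among them are the claudins (Cldn followed by a number, without one gene that the selection leaves out and without pseudogenes), Tjp1, Tjp3 and Marveld1 to Marveld3. Ocln, Cgn, F11r, Jam2, Jam3, Patj, Pard3, Pard6b and Cxadr also belong to them. By role they comprise 32 claudins, 4 MARVEL proteins, 4 immunoglobulin-type adhesion proteins (the JAM proteins and CAR) and 7 plaque and polarity proteins. Polyadenylated RNA had been sequenced from tumor (4 libraries) and from small intestine (4 libraries) of APC mutant mice on a C57B6/129 background, and both groups carry the mutation and received no treatment. APC is a tumor suppressor of the Wnt pathway, and mice with a mutant copy form intestinal tumors. The small intestine is thus that of mutant and not of wild-type mice. The labels give no allele, age or stretch of the small intestine, and do not say whether a library comes from 1 mouse. Nor do they say whether a tumor and a small intestine library share a mouse. The series is titled for high-fructose corn syrup, but none of these libraries is labelled as having received it.

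Tight junctions seal the space between neighbouring epithelial cells near their apical side. Claudins span the membrane and form the strands. Some of them close the space, and others line pores that let ions or water pass, so that the mixture of claudins sets how leaky an epithelium is. In the gut, crypt and villus cells are known to carry different claudins. Occludin and the other MARVEL proteins lie in the same strands, ZO proteins (such as those of Tjp1 and Tjp3) and cingulin tie the strands to actin, and the PAR and PATJ proteins help to place the junction along the cell's axis.

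Each tumor library held 53856561 to 67371180 gene-assigned reads and each small intestine library 62347648 to 84433335. CPM values, counts scaled to library size, are corrected here with trimmed-mean (TMM) factors, and FPKM values, which are per length and therefore used to compare genes with each other, are the authors'. The deposited FPKM summed to 502777 to 525873 per tumor library and to 1484108 to 10163708 per small intestine library. The highest value of a library was 6049 to 7729 FPKM in tumor and 622138 to 6801120 FPKM in small intestine. The cause of this was not tested. The tissue labels were set against marker genes. Summed over 10 absorptive enterocyte genes, the level was 771 to 1123 CPM in tumor and 60238 to 74837 CPM in small intestine, and all 10 fell in tumor. All 8 crypt base and Wnt target genes rose in tumor, and their summed level was 1622 to 1936 CPM in tumor and 99.4 to 171 CPM in small intestine. Of 12 pan-epithelial genes 3 rose and 6 fell, with sums of 6460 to 8707 CPM in tumor and 13334 to 17693 CPM in small intestine. These are bulk tissue samples, in which fewer cells of a type and less RNA per cell cannot be told apart.

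The finding turns on 4 claudins that changed in opposite directions within 2 functional classes, so the DNA around their starts is shown first. Cldn2 and Cldn15 both encode cation-permeable pore claudins, and Cldn4 and Cldn3 encode claudins of the sealing kind that lie next to each other in the genome. Each window runs from 250 bases before to 50 bases after the RefSeq gene start in GRCm38.p6 and is read 5′ to 3′ on the gene's strand, at chrX:139800558-139800857 (+), chr5:136967619-136967918 (+), chr5:134946885-134947184 (-) and chr5:134985964-134986263 (+). The RefSeq start of Cldn15 lies inside the gene as the GENCODE annotation draws it, which begins at base 136966616. Capitals mark the matches to 4 searched motifs.
Cldn2: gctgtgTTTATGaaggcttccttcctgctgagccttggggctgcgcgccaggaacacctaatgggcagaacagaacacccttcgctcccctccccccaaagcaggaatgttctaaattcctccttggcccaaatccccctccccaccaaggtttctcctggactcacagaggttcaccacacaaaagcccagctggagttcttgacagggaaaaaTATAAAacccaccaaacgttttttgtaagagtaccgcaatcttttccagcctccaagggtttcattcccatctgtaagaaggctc
Cldn15: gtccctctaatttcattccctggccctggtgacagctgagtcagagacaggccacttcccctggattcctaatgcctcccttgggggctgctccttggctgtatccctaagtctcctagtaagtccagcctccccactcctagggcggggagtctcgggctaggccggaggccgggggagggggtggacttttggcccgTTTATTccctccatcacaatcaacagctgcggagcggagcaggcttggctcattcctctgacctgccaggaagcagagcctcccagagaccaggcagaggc
Cldn4: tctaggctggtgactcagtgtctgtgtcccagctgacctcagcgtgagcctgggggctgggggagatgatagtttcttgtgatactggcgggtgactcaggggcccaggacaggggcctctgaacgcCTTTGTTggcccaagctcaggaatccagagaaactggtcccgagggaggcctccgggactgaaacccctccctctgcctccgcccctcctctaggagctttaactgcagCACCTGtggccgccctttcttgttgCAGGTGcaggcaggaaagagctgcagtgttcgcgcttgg
Cldn3: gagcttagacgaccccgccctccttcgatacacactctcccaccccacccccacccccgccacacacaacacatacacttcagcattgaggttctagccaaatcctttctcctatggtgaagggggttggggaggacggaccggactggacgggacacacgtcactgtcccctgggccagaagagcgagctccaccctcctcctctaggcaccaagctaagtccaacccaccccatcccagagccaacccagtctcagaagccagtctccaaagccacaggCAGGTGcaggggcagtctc

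The motifs were chosen with results of these data known and were searched on both strands. They are TTTATG or TTTATT (the core bound by CDX proteins, the intestinal homeobox factors), CTTTG followed by 2 letters that are each A or T (bound by TCF proteins, which act in the Wnt pathway), the E-box CAGGTG (bound by Snail-type repressors), and the TATA box as TATAAA. Positions count from 1 at the first base of the window, whose first 250 bases precede the gene start. The motifs do not overlap each other in these windows. The Cldn2 window holds TTTATG from base 7 and TATAAA from base 216. In the Cldn15 window TTTATT begins at base 200. The Cldn4 window holds CTTTGTT from base 128, and CAGGTG on the reverse strand from base 237 and on the forward strand from base 262. The Cldn3 window holds CAGGTG from base 282. Each of these motifs is common. Of 32851 promoter windows of this length, 27.6% hold the CDX core, 16.9% a TCF motif, 20.2% the E-box and 13.6% TATAAA. Of the 26 junction genes tested below 19 were matched to a RefSeq window, and of these 4 held the CDX core, 2 a TCF motif, 11 the E-box and 3 TATAAA in at least 1 window, where 30.8%, 18.9%, 22.6% and 15.7% of all 27025 genes do. These counts by gene are not like for like, since the 19 genes had 29 windows, more per gene than all genes had. Of the 29 windows 4 held the CDX core, 3 a TCF motif, 14 the E-box and 4 TATAAA. A match describes the letters of the window, and binding was not measured.

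Of the 47 genes 26 passed the filter on low counts, 11 of them claudins. In tumor 8 of them rose and 13 fell, while 5 were not called (edgeR quasi-likelihood test on the counts, Benjamini-Hochberg adjusted p under 0.05 over all 17029 genes tested). Across all genes tested 74.3% were called, 38.9% higher and 35.4% lower in tumor, so the number of junction genes called is close to the background. A change of at least 2-fold was called for 8 junction genes in the higher direction and 10 in the lower, beside 27.9% and 22.8% of all genes (50.8% in all). For 20 of the 26 the tumor and small intestine CPM ranges were separate, as for 70.5% of all genes. Their median log2 fold change was -0.42, and that of all genes 0.07. The genes that rose were 5 claudins (Cldn1, Cldn2, Cldn4, Cldn6 and Cldn18), 2 JAM genes and Marveld1, while each plaque or polarity gene that was called fell (with library totals Tjp1 was called higher). With library totals alone, which do not correct for composition, the median of all genes moves up by 0.863 on the log2 scale, and 13 junction genes were called higher and 7 lower, where 79.6% of all genes were called, 62.0% higher and 17.6% lower. Scaling to the 12 pan-epithelial genes moves the median by 0.313 and left 8 called higher and 13 lower, where 72.0% of all genes were called, 45.4% higher and 26.6% lower. On the deposited FPKM scale, tested with limma, 13 junction genes were called higher and 9 lower, where 82.7% of all genes were called, 64.6% higher and 18.1% lower. All 8 rises and 7 of the falls (Cldn3, Cldn7, Cldn15, Ocln, Marveld3, Cgn and Patj) were called in each of 19 other settings that tested the gene. The falls of Cldn23, Cxadr, F11r and Pard6b were no longer called with library totals or on the FPKM scale. On the FPKM scale limma called F11r higher, though not when run without a filter. Cldn8, Cldn12, Marveld2 and Tjp1 were called higher in tumor both with library totals and on the FPKM scale.

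The pore-forming claudins changed in opposite directions. Claudin-15, a sodium-permeable pore claudin of the small intestine, was at 22.1, 18, 34.9 and 13.2 CPM in the 4 tumor libraries and at 607, 529, 853 and 545 CPM in the 4 small intestine libraries. The lowest small intestine library lay far above the highest tumor library. Cldn15 fell 28.7-fold, with a log2 fold change of -4.84 ± 0.33 (SE) and an edgeR quasi-likelihood adjusted p of 1.43e-06, the largest fall among the junction genes tested. Leaving out 1 library at a time gave -5.12 to -4.63. Claudin-2, a cation and water pore that in the gut is known from crypts, was at 547, 539, 491 and 282 CPM in tumor and at 189, 235, 152 and 312 CPM in small intestine. The groups overlapped, since tumor replicate 4 lay below small intestine replicate 4, while the other 3 tumor libraries lay above every small intestine library. Cldn2 rose 2.10-fold (log2 fold change 1.07 ± 0.27, edgeR adjusted p = 0.00489), and leaving out 1 library at a time gave 0.92 to 1.29, each of them called.

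Because the library scale cancels in a ratio of 2 genes within a library, the proportion of both pore claudins can be read without a choice of scaling. The FPKM of Cldn2 over that of Cldn15 was 16.5, 19.4, 9.24 and 14.4 in tumor and 0.197, 0.279, 0.115 and 0.374 in small intestine. Each tumor library thus held several times more Cldn2 than Cldn15, and each small intestine library the reverse. The summed level of both genes depended on the scaling. In the deposited FPKM, which carry no composition correction, it was 200.4 ± 50.6 in tumor and 253 ± 42.7 in small intestine (SD, n = 4 each), and the groups overlapped. As TMM-scaled CPM per kilobase of exon the sum was 91.1 to 175 in tumor, against 319.7 to 447 in small intestine, with no overlap. As a share of the summed claudin FPKM of a library, both genes together made up 13.3 ± 2.31% in tumor and 10.8 ± 2.07% in small intestine, and these shares overlapped. With counts divided by the union exon length, a share that no library scaling changes, they were 15.5 ± 2.71% in tumor and 15.9 ± 3.03% in small intestine and also overlapped. The sums given above for enterocyte genes and for crypt base and Wnt target genes move with Cldn15 and Cldn2. In tumor the second sum was led by the Wnt target Nkd1, at a mean of 641 CPM, while the stem cell gene Lgr5 was at 45.9 CPM. Of 5 genes of Paneth cells, another crypt cell type, 3 fell and 1 rose. Their sums were 923 to 2461 CPM in tumor and 3993 to 12756 CPM in small intestine. The part of these cell types in the claudin values was not tested.

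Besides Cldn2 and Cldn15, the 3 most abundant claudins also went different ways. Claudin-7, which binds the adhesion protein EpCAM along the intestinal cell's sides, was at 421, 412, 427 and 358 CPM in tumor and at 1762, 2447, 2053 and 2436 CPM in small intestine. The groups lay well apart and Cldn7 fell 5.37-fold (log2 fold change -2.42 ± 0.16, edgeR adjusted p = 9.47e-07). Claudin-3, a sealing claudin, was at 235, 251, 242 and 207 CPM in tumor and at 654, 776, 885 and 879 CPM in small intestine. It fell 3.41-fold without overlap (log2 fold change -1.77 ± 0.13, edgeR adjusted p = 2.37e-06).

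Claudin-4, a close relative of claudin-3 and like it a receptor for the enterotoxin of Clostridium perfringens, moved the other way. It was at 684, 816, 679.8 and 575 CPM in tumor and at 155, 268, 228 and 558 CPM in small intestine. The groups did not overlap, but small intestine replicate 4 came close to tumor replicate 4 and stood at more than double each other small intestine library. Cldn4 rose 2.28-fold (log2 fold change 1.19 ± 0.35, edgeR adjusted p = 0.0116). Without small intestine replicate 4 the log2 fold change was 1.66, and without small intestine replicate 1 it was 0.96, the ends of the range over left-out libraries. The FPKM of Cldn4 over that of Cldn3 was 1.91 ± 0.129 in tumor and 0.231 ± 0.120 in small intestine (SD, n = 4 each), with no overlap.

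**Figure D1:**
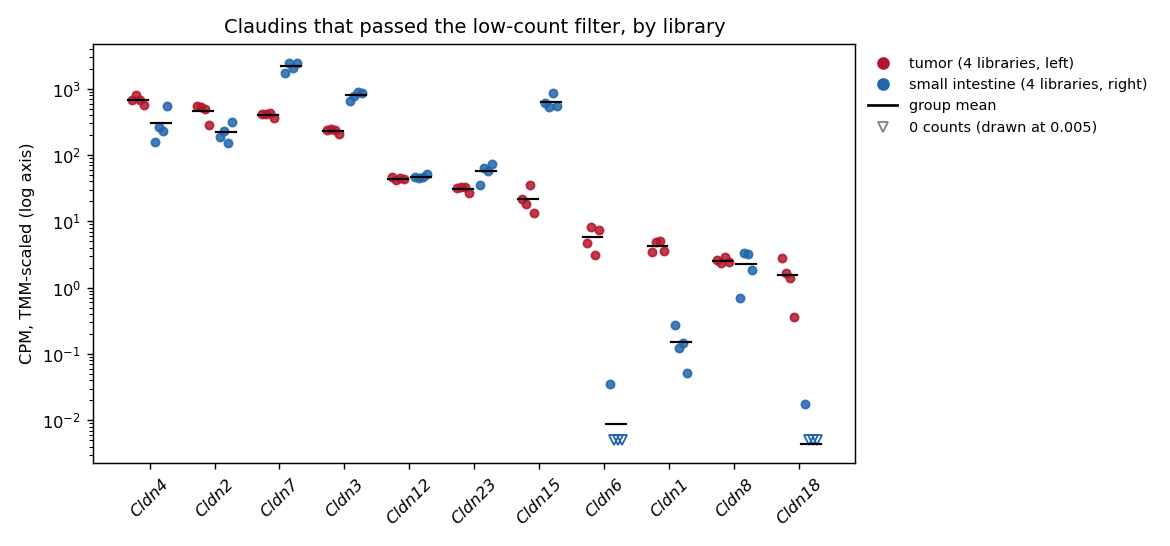
TMM-scaled CPM on a log axis for the 11 claudins that passed the low-count filter, with tumor libraries (red) left of small intestine libraries (blue), 4 of each, group means as lines, and open triangles for libraries with 0 counts. On this scale tumor libraries lie above small intestine libraries for Cldn4, Cldn6, Cldn1 and Cldn18 and below them for Cldn7, Cldn3, Cldn15 and Cldn23, while the groups overlap for Cldn2, Cldn12 and Cldn8.

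Cldn4 and Cldn3 are neighbours on chromosome 5 of GRCm38 (Cldn4 at chr5:134945119-134946934 on the minus strand, Cldn3 at chr5:134986214-134987472 on the plus strand), with 39279 bases between them. The third claudin of this stretch, Cldn13 (chr5:134914249-134915526, minus strand), ends 29592 bases from Cldn4. It failed the filter, with 0 counts in each tumor library and 10, 28, 3 and 22 counts in the small intestine libraries. Taking a floor of 3 counts per library for the tumor, Cldn13 was at least 7.61-fold lower there. Thus 1 gene of the stretch was higher in tumor and both of its neighbours were lower. Among other adjacent pairs, Cldn6 rose, and Cldn9 lies 137 bases from it on chromosome 17. Cldn9 had 16 counts in all tumor libraries and 2 in all small intestine libraries, the same direction, but was not tested. Ocln fell while Marveld2, 43238 bases away on chromosome 13, did not pass the test.

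The order of levels within each tissue was set by the deposited FPKM. In tumor the highest were Cldn7 at 509 ± 37.2 FPKM and Cldn4 at 478 ± 67.3 FPKM (SD, n = 4), which did not differ beyond their spread. They were followed by Cldn3 at 249 ± 21.1, Cldn2 at 187 ± 48.0 and F11r at 175 ± 11 FPKM, of which the last pair did not differ beyond the spread either. In small intestine Cldn7 led at 1487 ± 192 FPKM, ahead of Cldn3 at 478 ± 65.1, Cldn15 at 207 ± 53.4, F11r at 147 ± 16.3 and Cldn4 at 110.3 ± 57.2 FPKM. There the steps below Cldn3 were within reach of the spread of their neighbours.

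The make-up was also read as shares of the summed claudin FPKM of each library. Cldn4 made up 32.1 ± 1.88% of the claudin FPKM in tumor and 4.59 ± 2.18% in small intestine (SD, n = 4 each). Cldn7 held 34.4 ± 1.81% in tumor and 62.9 ± 2.70% in small intestine. Together Cldn7, Cldn3 and Cldn15, the 3 most abundant claudins among those that fell, took 52.0 ± 2.33% in tumor and 92.0 ± 2.66% in small intestine. The share of Cldn4 plus Cldn2 was 44.5 ± 2.55% in tumor and 6.54 ± 2.55% in small intestine, from 41.8 to 47.8% over tumor libraries and from 4.81 to 10.3% over small intestine libraries. Cldn3 held a more even share, 16.8 ± 0.672% in tumor and 20.2 ± 1.52% in small intestine. The leading claudin in tumor depends on the length used: with counts divided by the union exon length, Cldn4 led with 39.6% and Cldn7 had 21.8%, and in small intestine Cldn4 then had 6.89% and Cldn7 48.0%. The summed claudin FPKM was 1488 ± 164 in tumor and 2363 ± 272 in small intestine.

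**Figure D2:**
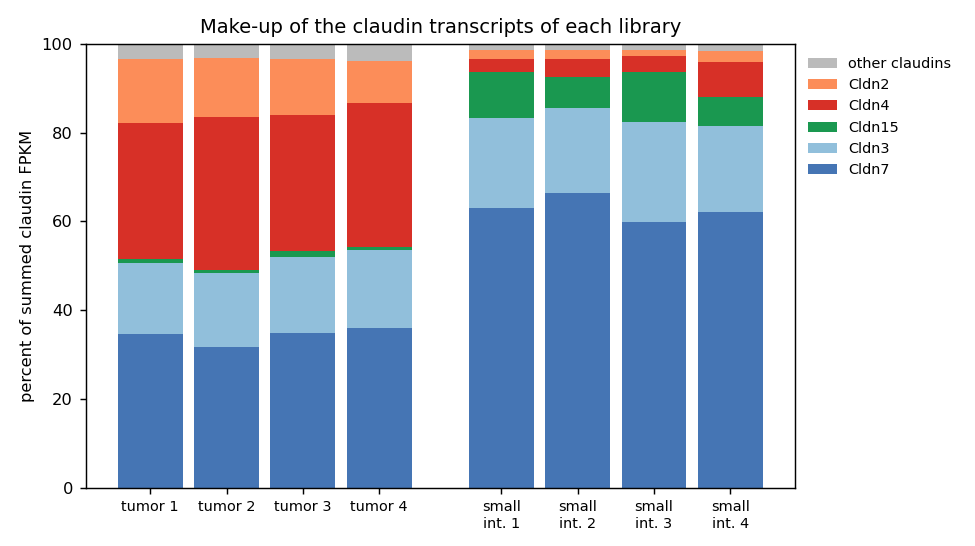
Share of the summed claudin FPKM (percent, stacked to 100) held by Cldn7, Cldn3, Cldn15, Cldn4, Cldn2 and all other claudins in each of the 4 tumor libraries (left) and 4 small intestine libraries (right). Cldn4 plus Cldn2 take 41.8 to 47.8% in tumor and 4.81 to 10.3% in small intestine.

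Since the marker sums of enterocytes and of epithelium as a whole differed between the tissues, claudins were also set against Epcam, the epithelial adhesion gene, within each library. Epcam itself fell (log2 fold change -1.26 ± 0.21, edgeR adjusted p = 0.000371). The FPKM of Cldn7, whose protein EpCAM binds and stabilises, was 0.552 ± 0.0379 times that of Epcam in tumor and 1.22 ± 0.141 times in small intestine (SD, n = 4 each). For Cldn4 the ratio to Epcam was 0.516 ± 0.0433 in tumor and 0.0868 ± 0.0331 in small intestine. For Cldn2 it was 0.199 ± 0.0310 in tumor and 0.0371 ± 0.00558 in small intestine, and here, unlike in CPM, the groups did not overlap. For Cldn15 it was 0.0142 ± 0.00488 in tumor and 0.178 ± 0.0729 in small intestine. The ratio depended on the epithelial gene chosen, which was examined after the data were seen. Against each of the 12 pan-epithelial genes in turn, Cldn15 was lower in tumor without overlap for 12, Cldn7 for 11 and Cldn3 for 10 (with 1 higher). Cldn2 and Cldn4 were each higher in tumor without overlap for 7 and overlapped for 5. Against Krt18, which rose, Cldn2 stood at 0.203 to 0.303 in tumor and 0.159 to 0.363 in small intestine, and Cldn4 at 0.634 to 0.734 in tumor and 0.333 to 1.14 in small intestine. The rises of Cldn2 and Cldn4 thus held relative to some epithelial genes and not to others.

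**Figure D3:**
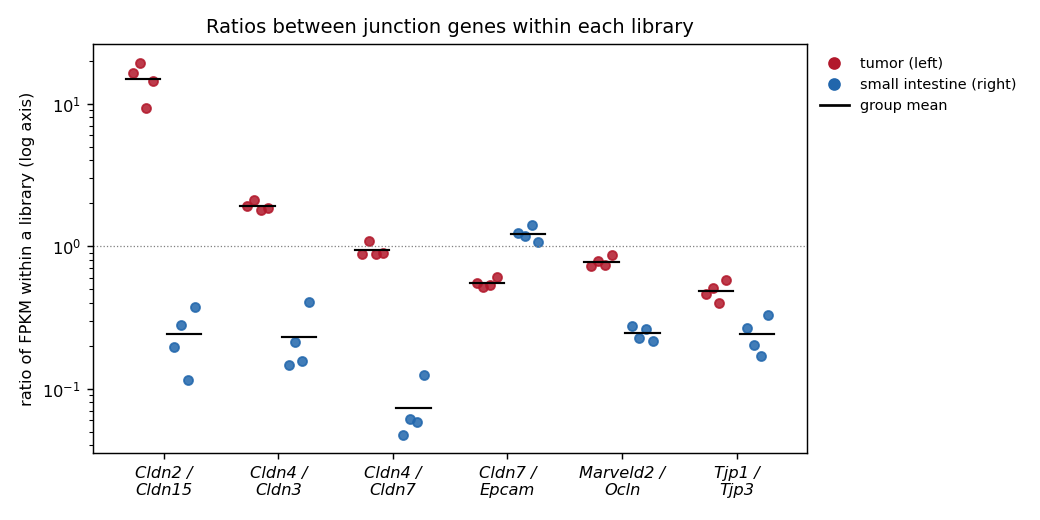
Ratios of FPKM between pairs of junction genes, and of Cldn7 to Epcam, within each library on a log axis, with tumor (red) left of small intestine (blue), 4 libraries each and lines at group means. None of the 6 ratios overlaps between the groups. Cldn2 over Cldn15 moves furthest, at 9.24 to 19.4 in tumor libraries and 0.115 to 0.374 in small intestine libraries. Each pair joins genes whose log2 fold changes differ, so the ratios restate those changes. In CPM 70.5% of all single genes tested were separate too.

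Among the claudins at a middle level, Cldn23, known from differentiated surface cells of the colon, was at 32.2, 33.1, 32.5 and 27.2 CPM in tumor and at 35.8, 64.9, 57.8 and 73.6 CPM in small intestine. It fell without overlap, though narrowly (log2 fold change -0.89 ± 0.20, edgeR adjusted p = 0.00247), and the call was lost with library totals (-0.01) and on the deposited FPKM scale, where the value was 0.05. Cldn12, a claudin without the usual PDZ-binding end, was at 46.4, 42.5, 45.3 and 43.2 CPM in tumor and at 46.1, 45.5, 46.4 and 51.6 CPM in small intestine. Its log2 fold change, -0.10 ± 0.08, was not called (edgeR adjusted p = 0.292) and turned to 0.77, called, with library totals. Cldn8, a sealing claudin of the colon and kidney, was at 2.63, 2.34, 2.88 and 2.41 CPM in tumor and at 0.694, 3.29, 3.17 and 1.85 CPM in small intestine. The small intestine libraries spread around the tumor libraries, and the log2 fold change was 0.19 ± 0.42 (edgeR adjusted p = 0.695). It turned to -0.12 without small intestine replicate 1, not called, while library totals gave 1.06 and limma on the FPKM scale 0.68, both called (adjusted p from 0.0049 to 0.855 over all settings).

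Low-level claudins of other epithelia were present in every tumor library and near 0 in small intestine. Claudin-1, the main barrier claudin of the skin, was at 3.50, 4.90, 5.06 and 3.53 CPM in tumor and at 0.278, 0.124, 0.147 and 0.0517 CPM in small intestine. Cldn1 rose 28.0-fold (log2 fold change 4.80 ± 0.45, edgeR adjusted p = 9.43e-06), yet in tumor its level was only 2.07 ± 0.365 FPKM. Claudin-6, a claudin of embryonic epithelia, had 429, 664, 225 and 653 counts in the tumor libraries, and in small intestine 2 counts in replicate 1 and 0 in replicates 2, 3 and 4. Scaled for library size, the counts of Cldn6 stood at a ratio of 653 (95% exact interval 181 to 5395, counting error only; edgeR adjusted p = 3.63e-06), and its tumor level was 4.95 ± 2.08 FPKM.

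Claudin-18, known from stomach and lung, had 254, 135, 99 and 32 counts in the tumor libraries, and in small intestine 1 count in replicate 1 and 0 in replicates 2, 3 and 4. The tumor libraries thus differed from each other by more for Cldn18 than for Cldn1, and replicate 4 was the lowest. The ratio of the scaled counts was 345 (95% exact interval 61.6 to 13634; edgeR adjusted p = 6.11e-05), and the fitted log2 values of Cldn6 and Cldn18 depend on the few counts of small intestine replicate 1 (9.07 for Cldn6 and 7.94 for Cldn18 with it, 11.69 and 9.78 without it). Most of the gastric and squamous markers tested moved with these 3 genes. Of 6 gastric markers 5 were tested and 4 rose, with sums of 95.2 to 237 CPM in tumor and 0.126 to 0.382 CPM in small intestine, and Gkn1 had 894, 720, 615 and 811 counts in the tumor libraries and 0 in each small intestine library. Of 4 squamous markers the 3 tested rose, and the list summed to 53.2 to 73.9 CPM in tumor and 1.42 to 10.4 CPM in small intestine. Most of the tumor sum was Krt14, at a mean of 48.0 CPM. The untested marker, Krt5, had 22 counts in all tumor libraries and 18 in all small intestine libraries. Their part in the rise of Cldn1, Cldn6 and Cldn18 was not tested.

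The other 21 claudins failed the low-count filter and none had more than 28 counts in a library. Of these 11 had 0 counts in all 8 libraries: Cldn17, Cldn19, Cldn24 and 8 Cldn34 genes. A count of 0 allows a level of up to 0.0419 CPM in a tumor library and 0.0630 CPM in a small intestine library, taking 3 counts as the limit. Among those with some counts, besides Cldn13 and Cldn9, Cldn20 had 17 counts in all tumor libraries and 50 in all small intestine libraries. Cldn14, known from the inner ear and kidney, had 5 in tumor and 38 in small intestine. For Cldn10, which forms channels in the kidney, the sums were 31 in tumor and 25 in small intestine, and for Cldn11, the claudin of myelin and testis, 14 and 23. Cldn34c1 had 34 counts in tumor and 4 in small intestine, but the Cldn34 genes are close copies between which reads could be split. Cldn22 had 9 counts in tumor and 4 in small intestine and lies wholly inside an exon of Wwc2 on the other strand, so without a stated strand setting its reads cannot be told from those of Wwc2. Cldn16, a kidney claudin, had 4 counts in tumor and 0 in small intestine, and Cldn34b2 had 2 and 0.

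Among the MARVEL genes 2 fell, 1 rose and 1 was not called. Occludin, encoded by Ocln, was at 60.4, 58.9, 59.5 and 54 CPM in tumor and at 161, 227, 183 and 242 CPM in small intestine. Tumor libraries lay close together, well under the lowest small intestine library, and Ocln fell 3.49-fold (log2 fold change -1.80 ± 0.14, edgeR adjusted p = 2.71e-06). Marveld3, a partner of occludin, was at 37.1, 39.6, 40.5 and 39.4 CPM in tumor and at 82.0, 107, 83 and 113 CPM in small intestine, and it fell by 1.30 ± 0.12 on the log2 scale without overlap (edgeR adjusted p = 9.97e-06).

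Tricellulin, the product of Marveld2, seals the points where 3 cells meet. Marveld2 was at 45.6, 47.5, 45.2 and 48.1 CPM in tumor and at 45.9, 51.1, 45.8 and 54.6 CPM in small intestine. The groups overlapped and the log2 fold change was -0.08 ± 0.08 (edgeR adjusted p = 0.392), which turned to 0.79, called, with library totals and to 0.24, not called, with scaling to pan-epithelial genes. Relative to Ocln within a library, Marveld2 stood at 0.779 ± 0.0626 in tumor and 0.245 ± 0.0287 in small intestine by FPKM (SD, n = 4 each), with no overlap. Marveld1, a MARVEL gene whose product is not a known part of the strands, rose 4.68-fold: it was at 16.9, 18.1, 16.7 and 20.7 CPM in tumor and at 4.79, 4.0, 3.27 and 3.40 CPM in small intestine (log2 fold change 2.23 ± 0.16, edgeR adjusted p = 2.2e-06).

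The immunoglobulin-type adhesion genes fell into 2 pairs. Jam2 and Jam3 encode JAM-B and JAM-C, which are known from endothelial and other non-epithelial cells as well as from epithelium. Jam2 was at 11.1, 13.1, 10.9 and 9.79 CPM in tumor and at 1.2, 0.460, 0.336 and 0.362 CPM in small intestine, with small intestine replicate 1 apart from the other three. It rose 19.0-fold (log2 fold change 4.25 ± 0.42, edgeR adjusted p = 1.45e-05), and the value was 4.85 without small intestine replicate 1. Jam3 was at 3.66, 3.07, 3.51 and 3.63 CPM in tumor and at 1.70, 2.14, 0.945 and 0.862 CPM in small intestine. It rose 2.45-fold without overlap (log2 fold change 1.29 ± 0.32, edgeR adjusted p = 0.00454). Of its 3200 exon bases 1159 also lie in an antisense gene, Gm48796. All 8 endothelial markers rose too, with sums of 208 to 264 CPM in tumor and 12.1 to 30.8 CPM in small intestine, as did all 7 fibroblast markers, at 1211 to 1922 CPM in tumor and 25.8 to 70.1 CPM in small intestine. The part of either in Jam2 and Jam3 was not tested. By FPKM Jam2 stood at 0.281 ± 0.0267 times Pecam1, an endothelial gene, in tumor and 0.0798 ± 0.0473 times in small intestine. Over the 8 endothelial markers the log2 fold change ran from 1.86 (Pecam1) to 5.86 (Cdh5), below and above that of Jam2. The direction of such a ratio thus depends on the marker chosen.

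F11r and Cxadr encode JAM-A and CAR, which lie in epithelial junctions. F11r was at 329, 329.8, 318 and 288 CPM in tumor and at 429, 571, 459 and 580.4 CPM in small intestine. It fell without overlap on this scale (log2 fold change -0.69 ± 0.13, edgeR adjusted p = 0.000858), but the direction turned to 0.18 with library totals, not called, and to 0.26 on the deposited FPKM scale, where limma called it higher (adjusted p = 0.0442, with 2.02e-06 to 0.11 over all settings). Run without a filter, limma did not call F11r. Relative to Epcam, F11r was at 0.176 to 0.213 in tumor and 0.110 to 0.131 in small intestine by FPKM, and against the 12 pan-epithelial genes it was higher in tumor without overlap for 4, lower for 7 and overlapping for 1. Cxadr was at 155, 152, 159 and 112 CPM in tumor and at 294, 319, 237 and 382 CPM in small intestine. It fell 2.13-fold (log2 fold change -1.09 ± 0.17, edgeR adjusted p = 0.000257), a call that was lost with library totals (-0.22) and on the FPKM scale (-0.17). Of its 7400 exon bases 695 also lie in Btg3 on the other strand, which had 275 to 381 counts in tumor libraries and 20 to 37 in small intestine libraries, few beside those of Cxadr.

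**Figure D4:**
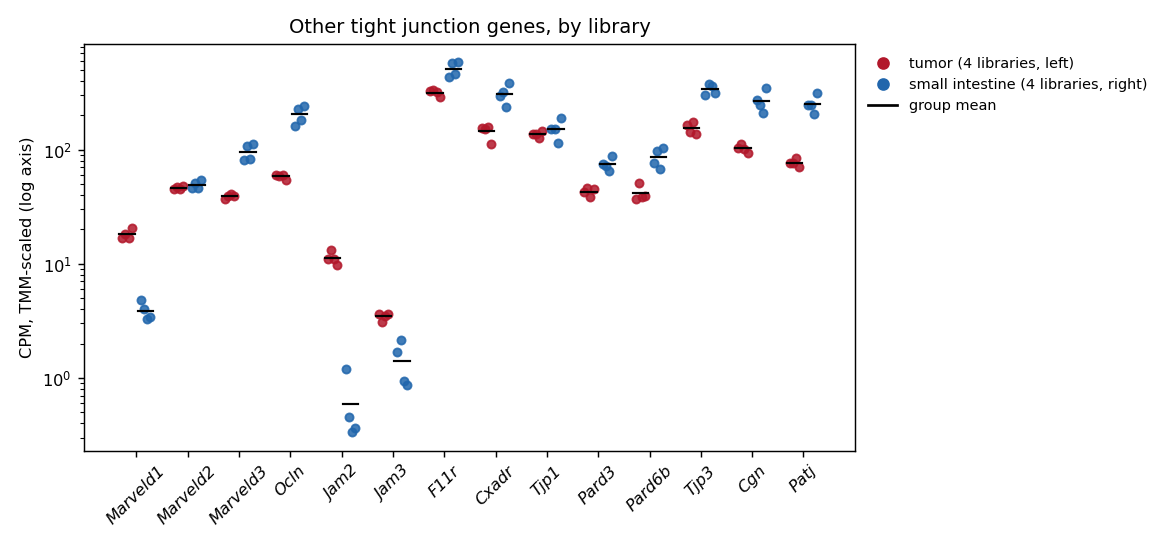
TMM-scaled CPM on a log axis for 14 of the tested junction genes other than claudins, with tumor (red) left of small intestine (blue), 4 libraries each and lines at group means. Tumor libraries lie above small intestine libraries for Marveld1, Jam2 and Jam3 and overlap them for Marveld2 and Tjp1. The other 9 lie lower in tumor on this scale, among them F11r and Pard3, whose direction turns with library totals.

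No plaque or polarity gene rose with TMM scaling, 5 of the 7 fell and 2 were not called, beside 38.9% higher and 35.4% lower among all genes. With library totals 2 of the 7 were called lower, beside 17.6% of all genes. Tjp1 was among those then called higher, beside 62.0% of all genes. ZO-3, encoded by Tjp3, was at 166, 144, 174 and 138 CPM in tumor and at 303, 379, 359 and 316 CPM in small intestine. It fell 2.18-fold without overlap (log2 fold change -1.13 ± 0.12, edgeR adjusted p = 2.12e-05), while library totals gave -0.26, not called (adjusted p = 0.0537, with 3.1e-17 to 0.0537 over all settings). ZO-1, which is made in most epithelia and beyond, was not called on this scale. Its gene Tjp1 was at 138, 136, 128 and 144 CPM in tumor and at 152, 153, 114 and 189 CPM in small intestine (log2 fold change -0.15 ± 0.14, edgeR adjusted p = 0.345). The groups overlapped, and Tjp1 turned and was called higher with library totals, at 0.72. Without small intestine replicate 3, Tjp1 was called lower at -0.27 (adjusted p = 0.0448, with 0.000499 to 0.811 over all settings). Within a library, the FPKM of Tjp1 over that of Tjp3 was 0.486 ± 0.0784 in tumor and 0.242 ± 0.0704 in small intestine (SD, n = 4 each), with no overlap, so ZO-1 and ZO-3 transcripts stood in a different proportion whatever the scaling.

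Cingulin, the actin and microtubule linker encoded by Cgn, was at 104, 112, 101 and 93.7 CPM in tumor and at 274, 245, 209 and 348 CPM in small intestine. Cgn fell 2.62-fold without overlap (log2 fold change -1.39 ± 0.15, edgeR adjusted p = 2.91e-05). Patj, a scaffold of the Crumbs polarity complex, was at 76.3, 77.1, 83.7 and 69.9 CPM in tumor and at 245, 249, 207 and 312 CPM in small intestine. It fell 3.30-fold, the largest fall in this class (log2 fold change -1.72 ± 0.13, edgeR adjusted p = 2.84e-06).

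The PAR genes of this class, Pard6b and Pard3, fell less, while Pard6a and Pard6g, which are outside it, rose (values below). Pard6b was at 37.2, 51.4, 38.2 and 38.9 CPM in tumor and at 76.7, 96.5, 67.2 and 103 CPM in small intestine (log2 fold change -1.05 ± 0.16, edgeR adjusted p = 0.000263), and Pard3 at 42.4, 45.8, 38.7 and 44.9 CPM in tumor and at 74.3, 71.3, 65.5 and 87.1 CPM in small intestine (-0.80 ± 0.11, adjusted p = 0.000102). Neither overlapped between the groups, but both calls were lost with library totals, where Pard6b was at -0.18 and Pard3 turned to 0.07, and that of Pard6b also on the FPKM scale (-0.10).

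**Figure D5:**
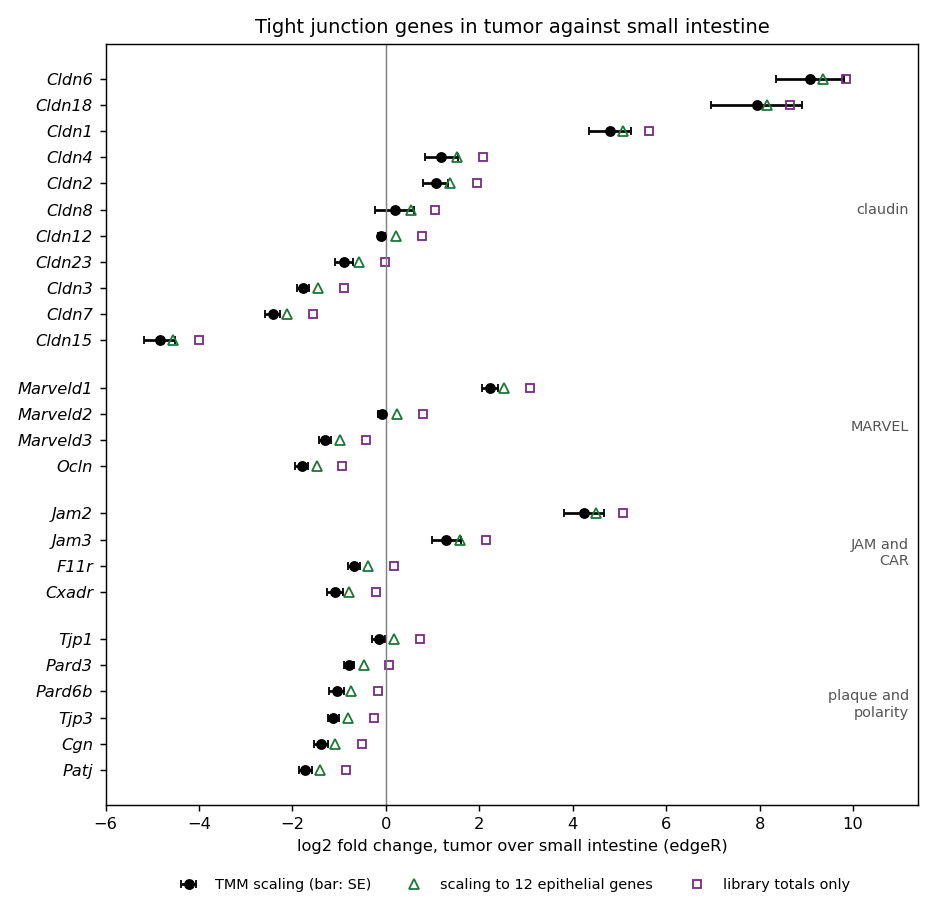
Log2 fold change of tumor over small intestine for 25 of the 26 tested junction genes by class, with TMM scaling (black, bars are SE), scaling to 12 pan-epithelial genes (green) and library totals (purple). Claudins span the widest range; with library totals all points move up by about the same amount, and F11r, Pard3, Tjp1, Marveld2 and Cldn12 change sign.

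A list of 43 further junction genes showed calls in both directions as well. Of 42 tested, 16 rose and 18 fell in tumor while 8 were not called, with a median log2 fold change of -0.16 beside 0.07 for all genes. These counts are near the 38.9% higher and 35.4% lower among all genes tested, and with library totals they were 25 higher and 12 lower. The largest changes upward were those of Vsig1, a junction protein of the stomach, Ildr2, a relative of the tricellular protein angulin-1, and Amotl1, an angiomotin of the junction plaque. Vsig1 had 1202, 806, 618 and 250 counts in the tumor libraries and 0 in each small intestine library, at least 158-fold higher in tumor with a floor of 3 counts per library (edgeR adjusted p = 5.77e-05). Ildr2 was at 7.5, 6.45, 4.6 and 12 CPM in tumor and at 0.0868, 0.106, 0.0210 and 0.0690 CPM in small intestine (log2 fold change 6.69 ± 0.48, edgeR adjusted p = 1.82e-06). Amotl1 rose 49.3-fold, to a mean of 77.4 CPM in tumor with an SD of 11.3, against 1.56 ± 0.721 CPM in small intestine (n = 4 each; edgeR adjusted p = 4.44e-07).

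The largest falls were in partners of the polarity and contraction machinery. Prkcz, an atypical protein kinase C that acts with PAR proteins, fell 9.10-fold (log2 fold change -3.19 ± 0.15, edgeR adjusted p = 1.92e-07). It was at 15.3, 15.6, 17.5 and 19.0 CPM in tumor and at 151, 153, 120.2 and 189.6 CPM in small intestine. Its relative Prkci rose 1.83-fold, from a mean of 47.0 CPM in small intestine to 86.0 CPM in tumor (edgeR adjusted p = 4.55e-05). The PAR genes of this list rose as well, Pard6g by 3.33 ± 0.33 and Pard6a by 0.44 ± 0.18 on the log2 scale (edgeR adjusted p = 1.45e-05 and 0.0458). Mpp5, the partner of PATJ in the Crumbs complex, was at 47.5, 48.9, 51.0 and 45 CPM in tumor and at 215, 190.4, 166 and 278 CPM in small intestine, a 4.42-fold fall beside the 3.30-fold fall of Patj. Mylk, the myosin light chain kinase that tenses the ring of actin at the junction, fell 4.40-fold, to 51.6 ± 7.14 CPM in tumor, against 227 ± 30.6 CPM in small intestine (SD, n = 4 each; edgeR adjusted p = 1e-06). By class, 4 of 6 tested tricellular and other membrane genes rose and 2 fell, 5 of 12 plaque genes rose and 4 fell, 5 of 12 polarity genes rose and 5 fell, and 2 of 12 regulators of contraction rose and 7 fell, beside 38.9% higher and 35.4% lower among all genes. With library totals the same 4 classes had 5 higher and 1 lower, 7 and 3, 8 and 4, and 5 and 4. Lin7b was not tested.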

How the data were processed

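Per the labels' protocols, TRIzol-extracted RNA was cleared of DNA on columns before Illumina library preparation. The authors deposited raw read counts per gene, used here as deposited, and FPKM values per gene, which the authors had scaled for library size and for length. FastQC, STAR, Cufflinks 2.2.1, HTSeq 0.6.0 and GRCm38 are named per the submitters' processing notes; the sources used here give neither the strand setting nor the rule for shared reads. Gene positions and exon lengths come from GENCODE M21 (GRCm38), promoters from RefSeq. Protein sequences were not used here.

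Counts were tested with edgeR 4.0.16 in R 4.3.3 (glmQLFit and glmQLFTest, TMM, filterByExpr, tissue as the only term, 2-sided) over all genes, and the script was first tested on simulated data. Calls were made at a Benjamini-Hochberg adjusted p under 0.05. Each standard error was derived from its fold change and F statistic. Limma 3.58.1 (trend) was run on log2(FPKM + 1) for genes averaging 1 FPKM or more. That scale shrinks the changes of low genes and carries no composition correction. DESeq2 1.42.0 and the other alternatives are given in the closing section. Reads carry no molecular identifiers, so intervals and floors of 3 counts cover counting error only.

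Groups come from the tissue labels. Since no label says that libraries of a group are separate animals, p-values measure the spread between samples only, and this may be technical. Every pair of libraries differed by more than sampling noise (chi-square over degrees of freedom at least 38.9). The junction genes, the further junction and marker lists and the motifs were chosen with earlier results of these data known. By the rule for naming, each junction gene with a mean of at least 1 FPKM in either tissue is named, with each library's value where the mean reaches 10 FPKM or a change of at least 2-fold is called. Filtered genes are given by counts, and up to 3 further genes are named per direction. Prkci, Pard6a and Pard6g are named besides, as relatives of named genes that fell. The values of 1 junction gene, included in the counts, are not reported here.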

Additional observations from a re-analysis of the deposited data

Results flagged for a closer look

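For 7 of the 52 groups of 4 libraries (26 genes in each tissue), 1 library stood apart from the other three by Dixon's criterion at 95%, which chance meets in about 1 group of 20. Tumor replicate 4 was the lowest tumor library for Cxadr, at 112 CPM beside 152 to 159 CPM in the others, and for Cldn23, at 27.2 CPM beside 32.2 to 33.1 CPM. Tumor replicate 2 was the highest for Pard6b, at 51.4 CPM beside 37.2 to 38.9 CPM.

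In small intestine, replicate 4 was the highest for Cldn12, at 51.6 CPM beside 45.5 to 46.4 CPM. Small intestine replicate 1 was the highest for Jam2, at 1.2 CPM beside 0.336 to 0.460 CPM, for Cldn6, at 0.0347 CPM beside 0 in the other three, and for Cldn18, at 0.0174 CPM beside 0. The last 2 rest on 2 counts and 1 count. Over the 26 genes, tumor replicate 4 ranked last among the tumor libraries for 14, and small intestine replicate 4 ranked first among the small intestine libraries for 14.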

How the results depend on the processing

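Of the 26 tested junction genes, DESeq2's size factors, TMM without the 50 most abundant genes, the DESeq2 Wald test, a mean of at least 1 CPM, no low-count filter and scaling to pan-epithelial genes each left 8 called higher and 13 lower in tumor (without the filter 16 lower over all 47 genes). Leaving out 1 library at a time gave 8 to 8 higher and 13 to 14 lower, and 12049 to 12917 genes called in all. Library totals gave 13 higher and 7 lower (10564 higher and 2996 lower of all genes; 25 of the further junction genes higher). Limma on log2(FPKM + 1), on log2(FPKM + 0.1) and without a filter called 13, 13 and 15 junction genes higher (the 15 include 2 that the count filter had left out), 2326, 2328 and 3007 of all genes lower, and 10, 10 and 10 further junction genes lower; without a filter it called 11174 of all genes and 25 further junction genes higher. A minimum of 2-fold left 3887 of all genes lower and 10 further junction genes higher. The FPKM and library-total settings apply no composition correction.

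Signs turned as follows, as log2 fold changes. Library totals gave 0.18 for F11r, 0.72 for Tjp1, 0.79 for Marveld2, 0.77 for Cldn12 and 0.075 for Pard3. Scaling to pan-epithelial genes gave 0.16 for Tjp1, 0.24 for Marveld2 and 0.22 for Cldn12, none of them called. On the FPKM scale with pseudocounts of 1 and 0.1, F11r was at 0.26 and 0.26, Tjp1 at 0.64 and 0.67, Cldn23 at 0.048 and 0.052, Marveld2 at 0.67 and 0.71 and Cldn12 at 0.85 and 0.91. The values with pseudocount 1 were the same without a filter. Without the low-count filter on counts Marveld2 was at 0.015 and Cldn12 at 0.00322, and without small intestine replicate 1 Cldn8 was at -0.12, the low end of a range up to 0.43 over left-out libraries. Other than the lack of composition correction, the cause was not tested.

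The labels do not say whether the replicate numbers pair the samples. Same-numbered libraries had correlations of -0.067, -0.076, 0.014 and -0.159 of their deviations, which cannot show whether they share a mouse. With the replicate number as a block, 8 junction genes were called higher and 13 lower, 16 further junction genes higher and 17 lower, and 11893 of all genes (6301 higher, 5592 lower). Depth limits the 21 untested claudins, none above 28 counts in a library.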
